A study of Homo sapiens with 10 samples.

Results

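WNT genes were followed in thyroid organoids grown from human embryonic stem cells. The genes were 54 of the 28265 gene symbols in the count tables. They were taken by name: 19 WNT ligands, 10 Frizzled receptors (FZD), the co-receptors LRP5 and LRP6, 4 secreted Frizzled-related proteins (SFRP), 4 Dickkopf genes (DKK), 4 R-spondins (RSPO), 3 LGR receptors, ZNRF3 and RNF43, AXIN1, AXIN2, NKD1 and NOTUM, and the transcription factors LEF1 and TCF7. The rule used names alone, with no measured value, though the members were chosen with earlier results of these data known.

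WNT ligands are secreted lipid-modified proteins that bind a Frizzled receptor, together with LRP5 or LRP6 in the canonical branch. Binding stops the AXIN-based complex from degrading β-catenin, which then enters the nucleus and acts with LEF1, TCF7 and related factors. SFRP proteins hold back ligands, DKK proteins block the co-receptors, and ZNRF3 and RNF43 remove Frizzled receptors from the cell surface unless an R-spondin and an LGR receptor hold them off. Several members (AXIN2, NKD1, NOTUM, LGR5, ZNRF3, RNF43, LEF1, TCF7 and DKK1) are themselves common targets of β-catenin, so that much of the pathway is feedback. In the embryo, WNT signals pattern the foregut endoderm, the source of the thyroid and the lung.

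RNA-seq was performed on sorted NKX2-1GFP+ cells in 10 libraries, a pair of biological replicates for each of days 16, 23, 31, 38 and 45. The cells came from the line ESIBIe003-A-6, in which GFP replaces part of 1 NKX2-1 allele and transgenes for NKX2-1 and PAX8 answer to doxycycline, and which was grown from selected clones. All groups had received Activin A and then a pulse of doxycycline before day 16. By the study's text the cells were in basal medium until day 16, then in 8-br-cAMP (a cAMP analogue), then in hrTSH (recombinant human TSH) with dexamethasone (a glucocorticoid), and before day 45 SB431542, which blocks the kinases of TGFβ receptors, was added. The sample labels name c-AMP for days 16, 23 and 31, TSH and DEX for day 38, and TSH and SB for day 45. The text places the change from cAMP to hrTSH shortly before day 31, against the label of that day, and gives more than 1 start for SB431542, so that it may have been added before the day 38 libraries were taken. Neither was settled here. Age and medium thus changed together and cannot be told apart, each replicate pooled several wells, and later libraries from cAMP alone were not analysed here. In bulk RNA, fewer cells of a type and less RNA per cell cannot be told apart either.

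Counted totals ran from 7247268 to 10333933 per library, and 3 counts, used here as the smallest readable value, came to between 0.307 and 0.436 CPM, the depth-scaled count, here with TMM factors. The sort and tissue were checked on their markers. TG, which encodes thyroglobulin, measured 10.7 and 11.7 CPM on day 16, 207 and 178 on day 23, 199.9 and 212 on day 31, 5547 and 4875 on day 38 and 7964 and 7525 on day 45. NKX2-1, the gene of the sort, measured 90.03 and 83.9 CPM on day 16, 143 and 129 on day 23, 151 and 157 on day 31, 154 and 133 on day 38 and 58.1 and 66.7 on day 45, and was lower at day 45 than at day 16 (log2 fold change -0.48 ± 0.15, adjusted p = 0.0202). Up to 32.6% of its exon bases are shared with another gene (SFTA3 on the same strand or NKX2-1-AS1 on the opposite strand), which leaves its values uncertain, and whether reads of the NKX2-1 transgene enter its count was not tested. Of 11 thyroid genes 10 passed in that comparison (beside 24.6% of all genes), 6 higher, TG and TSHR among them, and 4 lower (FOXE1, IYD, NKX2-1 and PAX8). SFTPC, the defining gene of alveolar type 2 cells, was at 0 in 9 of 10 libraries, while 4 of 9 tested distal lung genes (ABCA3, ETV5, SFTPB and SLC34A2) were higher at day 45 (44.4%, beside 12.9% of all genes). Genes that mark other cells were also read, and their lists are given beside the results they moved with.

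All but 2 of the WNT genes could be tested: 52 of 54 had at least 5 counts in at least 2 libraries. WNT7A had 0 counts in all 10 libraries and WNT9B had 9 in all, so neither was tested. Between day 16 and day 45, 22 of the 52 (42.3%) passed the test (edgeR's quasi-likelihood test over all genes, adjusted p below 0.05), beside 24.6% of all 21014 genes tested. Of these, 18 were lower and 4 (DKK1, LGR5, WNT11 and WNT7B) were higher at day 45, where 11.7% of all genes were called lower and 12.9% higher. The 18 were 7 Frizzleds, LRP6, LEF1, TCF7, AXIN2, NKD1, ZNRF3, RNF43, LGR4, RSPO2, SFRP1 and WNT5B. The median log2 fold change of the tested WNT genes was -0.17, and that of all genes tested was 0.00. Summed over the 54 genes, the level was 2535 and 2444 CPM on day 16, 2466 and 2501 on day 23, 2081 and 2082 on day 31, 1839.8 and 1836 on day 38 and 1509 and 1496 on day 45. It was lowest in the 2 libraries of day 45 and highest in those of days 16 and 23, which overlapped. Over any day, 29 of 52 (55.8%) passed, beside 36.3% of all genes.

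**Figure D1:**
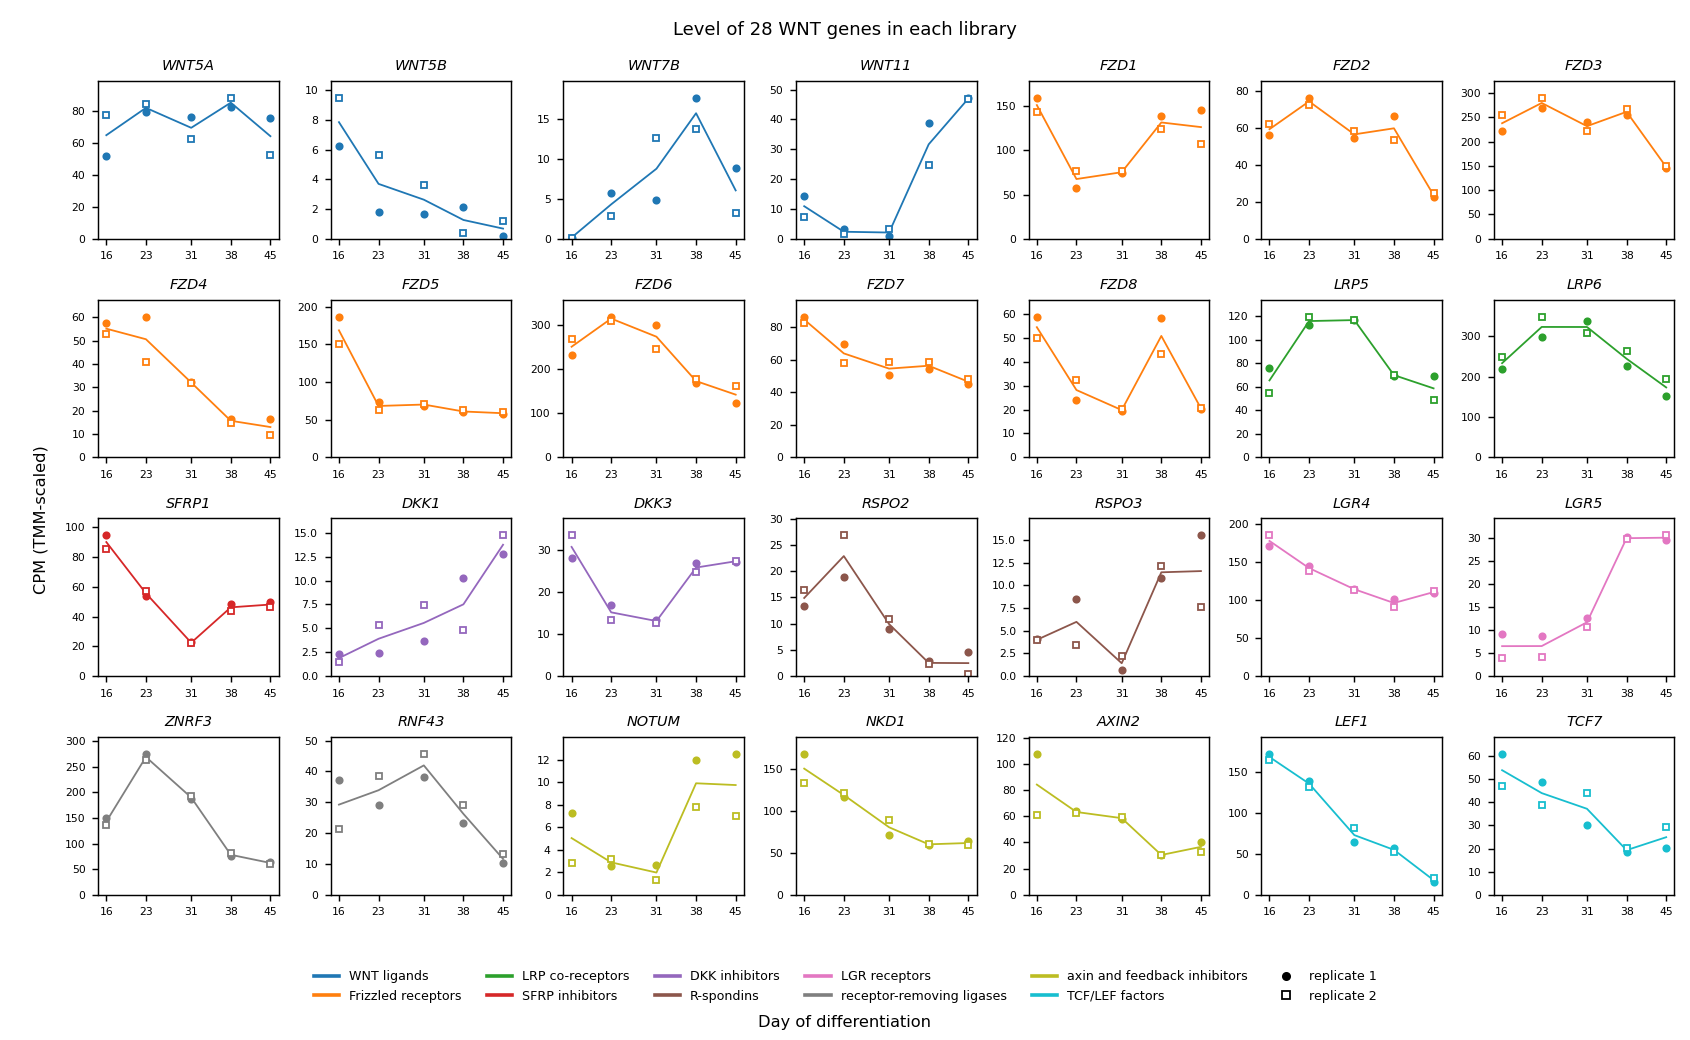
Level (CPM, vertical axis from 0, a different scale in each panel) of the 28 WNT genes described with their values, by day of differentiation. Circles are replicate 1, squares replicate 2, lines join daily means and colours give the role; LEF1 falls from 172 and 165 CPM to 15.5 and 20.3, and WNT11 ends at 47.2 and 46.7.

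Both DNA-binding partners of β-catenin in the set were lower at day 45 than at day 16 (beside 11.7% of all genes called lower). Of the related factors outside the set, TCF7L2 was called higher at day 23 and at day 45 against day 16. TCF7L1 was called higher at day 38 against 31. LEF1 (chr4:108047545-108168956, minus strand, GRCh38, ENSG00000138795), which carries β-catenin to WNT response elements, measured 172 and 165 CPM on day 16, 139.5 and 132 on day 23, 64.4 and 81.6 on day 31, 57.4 and 52.5 on day 38 and 15.5 and 20.3 on day 45. Both libraries of each later day lay below both of the day before. The difference between days 45 and 16 was 9.34-fold (log2 fold change -3.22 ± 0.19, adjusted p = 1.11e-15), and the falls at day 31 against 23 (-0.90 ± 0.17, adjusted p = 0.00109) and at day 45 against 38 (-1.61 ± 0.18, adjusted p = 7.27e-08) passed the test. Without day 31 replicate 1 the former was -0.74 and did not pass (adjusted p = 0.106). TCF7, the second factor of this family in the set, measured 60.9 and 46.9 CPM on day 16, 49.0 and 39.0 on day 23, 30.3 and 44.1 on day 31, 18.6 and 20.0 on day 38 and 20.3 and 29.5 on day 45. Its libraries of days 38 and 45 lay below those of the first 3 days, the nearest pair being day 45 replicate 2 and day 31 replicate 1. It was lower at day 45 than at day 16 (log2 fold change -1.11 ± 0.26, adjusted p = 0.00122) and lower at day 38 than at day 31 (-0.94 ± 0.26, adjusted p = 0.01). This step did not pass without day 31 replicate 2 (-0.66), day 38 replicate 1 (-0.89) or day 38 replicate 2 (-1.0). Per kb of exon, LEF1 was the higher of the pair at day 16 (31.4 ± 0.931 against 5.34 ± 0.977 CPM per kb, SD, n = 2), while at day 45 they stood at 3.34 ± 0.630 and 2.47 ± 0.642, a gap within the spread of the libraries.

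Of the feedback inhibitors, AXIN2 and NKD1 were lower at the end (beside 11.7% of all genes called lower). AXIN2 (chr17:65528563-65561648), the inducible scaffold of the β-catenin degradation complex, measured 107 and 60.8 CPM on day 16, 63.8 and 62.5 on day 23, 57.6 and 59.3 on day 31, 30.1 and 30.6 on day 38 and 40.4 and 32.8 on day 45. All 4 libraries of the last 2 days lay below the other 6. The gene fell at day 38 against 31 (log2 fold change -0.94 ± 0.22, adjusted p = 0.00252) and was lower at day 45 than at day 16 (-1.20 ± 0.22, adjusted p = 6.94e-05). Its 2 libraries of day 16 differed, and without replicate 2 of that day the step to day 23 passed as a fall (-0.77). An unnamed gene on the same strand shares 25.3% of the exon bases of AXIN2. NKD1, which binds Dishevelled and dampens the signal, measured 168 and 133 CPM on day 16, 116 and 122 on day 23, 71.9 and 89.6 on day 31, 59.5 and 61.1 on day 38 and 64.3 and 59.5 on day 45. Its fall over the whole course passed the test (log2 fold change -1.29 ± 0.17, adjusted p = 1.89e-07), while no single step did (log2 fold changes -0.34, -0.56, -0.42 and 0.04). The second step passed with the replicate block (adjusted p = 0.0315), with no filter on low counts (0.0371) and without either library of day 16 (0.028 and 0.0266), and the third by library size alone (0.00681). AXIN1, the constitutive scaffold, ranged from 18.1 to 31.9 CPM and passed in no comparison.

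NOTUM, a secreted enzyme that removes the lipid from WNT ligands, went the other way at day 38. It measured 7.23 and 2.83 CPM on day 16, 2.55 and 3.20 on day 23, 2.66 and 1.28 on day 31, 12.0 and 7.80 on day 38 and 12.5 and 6.99 on day 45. The 4 libraries of days 38 and 45 overlapped those of day 16 through its replicate 1 and lay above all 4 of days 23 and 31. Only the step from day 31 to 38 passed (log2 fold change 2.31 ± 0.65, adjusted p = 0.0118). Without day 31 replicate 2 it was 1.88, and without day 38 replicate 1 it was 1.97, and neither passed, whereas without day 31 replicate 1 it was 2.94.

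The 2 receptor-removing ubiquitin ligases were lower at day 45 than at day 16 (beside 11.7% of all genes called lower). ZNRF3 (chr22:28883572-29057488) measured 149.8 and 137 CPM on day 16, 275 and 264 on day 23, 187 and 194 on day 31, 75.4 and 80.9 on day 38 and 65.0 and 59.3 on day 45. Both day 23 libraries were above the other 8, and all 4 of days 38 and 45 were below the other 6. It rose at day 23 against 16 (log2 fold change 0.91 ± 0.14, adjusted p = 1.19e-05) and fell at day 31 against 23 (-0.50 ± 0.14, adjusted p = 0.0408) and at day 38 against 31 (-1.28 ± 0.14, adjusted p = 1.38e-08). Day 45 against 16 gave -1.20 ± 0.14, adjusted p = 3.08e-08. The fall at day 31 was lost without any 1 of the 4 libraries compared (-0.47 to -0.54), without either of day 38 (-0.50), and without TMM factors. RNF43 (chr17:58353676-58417595) measured 37.2 and 21.3 CPM on day 16, 29.1 and 38.6 on day 23, 38.3 and 45.6 on day 31, 23.3 and 29.1 on day 38 and 10.2 and 13.1 on day 45. Only its last step passed (log2 fold change -1.16 ± 0.30, adjusted p = 0.00684), and both day 45 libraries lay below the other 8. That call was lost without day 38 replicate 2 (-1.0) or day 45 replicate 1 (-1.0), and the one against day 16 (-1.32 ± 0.30, adjusted p = 0.000812) without day 16 replicate 1 (-0.88). In the annotation (GENCODE 44), 68.4% of the exon bases of RNF43 are shared with an unnamed gene on the same strand. TSPOAP1-AS1 on the opposite strand, which had at most 15 counts in a library, shares no larger a part. Whether counting used strand was not stated, and strand would not separate the gene on the same strand, so the RNF43 values are uncertain.

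The Frizzleds, the ligand-binding receptors, were the largest share of the WNT reads per length and the group with the most calls: 7 of 10 were lower at day 45 than at day 16 (70.0%, beside 11.7% of all genes) and 0 higher, with a median log2 fold change of -0.84. The share of all genes was not matched for level, and the part of level in these calls was not tested. Summed over the 10, the level per kb was 180.1 ± 1.31 CPM per kb on day 16 (SD, n = 2), 164 ± 2.35 on day 23, 141 ± 8.18 on day 31, 132 ± 3.66 on day 38 and 96.9 ± 3.41 on day 45. The receptors fell on different days, and FZD1 and FZD8 rose again at day 38. FZD6 was the most abundant per length on each of the 5 days, at 61.4 ± 6.25 CPM per kb at day 16 and 34.8 ± 6.83 at day 45. Behind it at day 16 came FZD5 (24.0 ± 3.65), FZD1 (22.0 ± 1.67), FZD7 (18.4 ± 0.555) and FZD3 (17.2 ± 1.67), neighbours that did not differ beyond their spread except FZD1 and FZD7. At day 45 FZD1 was next (18.4 ± 3.89), and FZD10 was the lowest at both ages. FZD9 was next to it, and at day 45 (1.46 ± 0.216) its libraries overlapped those of FZD4 (1.76 ± 0.685).

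**Figure D2:**
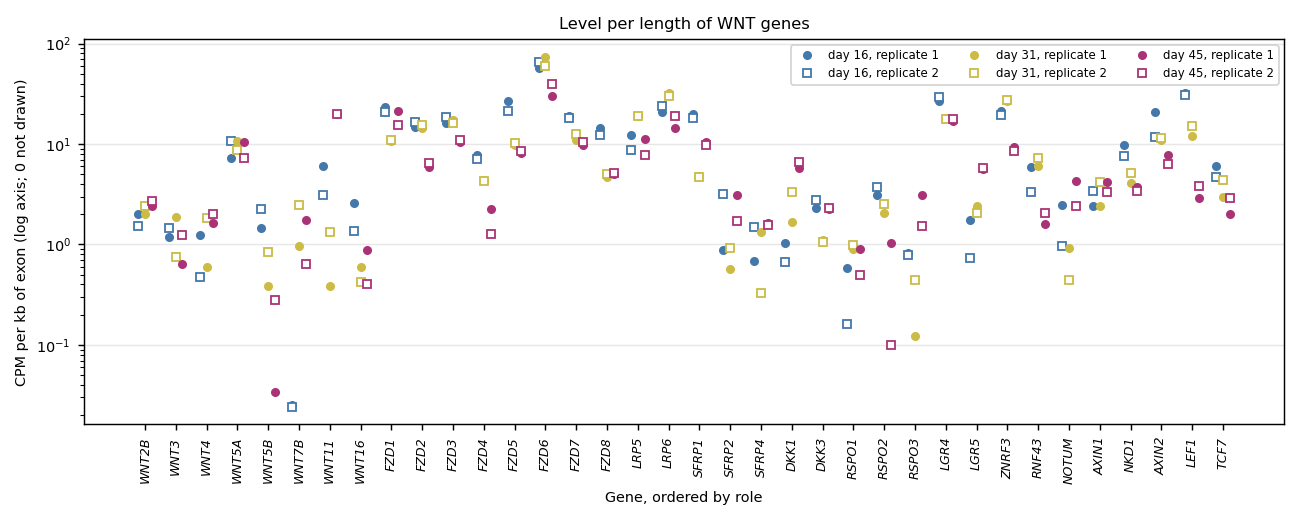
Level per length (CPM per kb of exon, log axis; values of 0 are not drawn) of the 36 WNT genes with a highest daily mean of at least 5 CPM, at days 16, 31 and 45. Circles are replicate 1 and squares replicate 2; FZD6 is the highest receptor on each of these days, and WNT11 is the ligand with the highest level at day 45 (19.8 CPM per kb).

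FZD5 and FZD1 dropped first. FZD5, a receptor for canonical ligands, measured 187 and 150.5 CPM on day 16, 73.7 and 62.6 on day 23, 68.7 and 71.4 on day 31, 59.5 and 62.2 on day 38 and 57.3 and 59.7 on day 45. Both day 16 libraries were above the other 8, which ranged from 57.3 to 73.7 CPM. The 1 step that passed was the fall at day 23 against 16 (log2 fold change -1.31 ± 0.17, adjusted p = 7e-07) and day 45 was also below day 16 (-1.53 ± 0.17, adjusted p = 8.38e-09). FZD1 measured 159.6 and 143 CPM on day 16, 58.0 and 77.2 on day 23, 74.3 and 76.3 on day 31, 139 and 125 on day 38 and 145 and 108 on day 45. It fell at day 23 (log2 fold change -1.16 ± 0.17, adjusted p = 5.37e-06) and rose at day 38 against 31 (0.81 ± 0.17, adjusted p = 0.000584), and day 45 against 16 did not pass (-0.26 ± 0.17, adjusted p = 0.276). The 4 libraries of days 23 and 31 were below the other 6.

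FZD8 moved down, up and down again. It measured 59.0 and 50.1 CPM on day 16, 24.1 and 32.4 on day 23, 19.2 and 20.4 on day 31, 58.4 and 43.3 on day 38 and 20.3 and 20.8 on day 45. The libraries of days 16 and 38 overlapped and were above the other 6. The calls were a fall at day 23 (log2 fold change -0.95 ± 0.25, adjusted p = 0.00837), a rise at day 38 against 31 (1.36 ± 0.25, adjusted p = 0.000128) and a fall at day 45 against 38 (-1.31 ± 0.25, adjusted p = 0.000323), with day 45 against 16 at -1.41 ± 0.25, adjusted p = 4.4e-05. The first was lost without day 16 replicate 1 (-0.82) or day 23 replicate 1 (-0.75).

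FZD2 and FZD3, by contrast, held until the last step. FZD2 measured 56.0 and 62.2 CPM on day 16, 76.0 and 72.3 on day 23, 54.2 and 58.4 on day 31, 66.0 and 53.2 on day 38 and 22.4 and 24.7 on day 45, with both day 45 libraries below the other 8. It was lower at day 45 than at day 38 (log2 fold change -1.34 ± 0.21, adjusted p = 1.18e-05) and than at day 16 (-1.33 ± 0.21, adjusted p = 4.37e-06). FZD3, the receptor best known from axon guidance and planar polarity, measured 221 and 254 CPM on day 16, 269 and 289.8 on day 23, 241 and 223 on day 31, 255 and 268 on day 38 and 145 and 150.5 on day 45. It too was lowest in the 2 libraries of day 45, lower than at day 38 (log2 fold change -0.82 ± 0.13, adjusted p = 2.22e-05) and at day 16 (-0.69 ± 0.13, adjusted p = 0.000104).

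FZD4 and FZD6 fell at day 38. FZD4, which also binds Norrin, measured 57.4 and 52.8 CPM on day 16, 60.3 and 40.9 on day 23, 32.2 and 31.9 on day 31, 16.5 and 14.8 on day 38 and 16.6 and 9.39 on day 45. Its 4 libraries of days 38 and 45 were below the other 6. The fall passed at day 38 against 31 (log2 fold change -1.03 ± 0.27, adjusted p = 0.00681) and over the whole course (-2.10 ± 0.28, adjusted p = 3e-07), and without day 38 replicate 2 the step was -0.96 and did not pass. FZD4 shares 18.9% of its exon bases with PRSS23 on the opposite strand, which measured 18.3 to 105 CPM and was itself lower at day 45 than at day 16 (log2 fold change -1.97, adjusted p = 9.83e-08). The strand setting of the counting is not given in the sources used here, so the values of FZD4 are uncertain. FZD6, mostly known from planar polarity, measured 232 and 268 CPM on day 16, 318 and 309 on day 23, 299.6 and 245 on day 31, 167 and 177 on day 38 and 122 and 161 on day 45. It fell at day 38 against 31 (log2 fold change -0.66 ± 0.14, adjusted p = 0.0009), a call lost without day 31 replicate 1 (-0.51), and was lower at day 45 than at day 16 (-0.82 ± 0.14, adjusted p = 3.3e-05). FZD7 measured 86.4 and 82.8 CPM on day 16, 69.6 and 58.0 on day 23, 50.5 and 58.4 on day 31, 54.2 and 58.2 on day 38 and 44.9 and 47.9 on day 45. Its libraries at day 16 were above all later ones, no single step passed, and day 45 against 16 gave -0.86 ± 0.19, adjusted p = 0.00059. FZD9 and FZD10 had daily means of at most 3.42 CPM and passed in no comparison between 2 days, and FZD9 passed over any day (adjusted p = 0.0132).

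The co-receptors rose at day 23 (beside 5.60% of all genes called higher) and fell at day 38 (beside 6.23% called lower). LRP5 measured 76.3 and 54.6 CPM on day 16, 112 and 119.7 on day 23, 117 and 117 on day 31, 69.6 and 70.3 on day 38 and 69.0 and 48.4 on day 45. LRP6, the WNT gene with the most counts, measured 218 and 249 CPM on day 16, 298 and 349 on day 23, 337 and 309 on day 31, 226 and 263 on day 38 and 151 and 195 on day 45. Both were highest on days 23 and 31. LRP5 rose at day 23 (log2 fold change 0.83 ± 0.18, adjusted p = 0.00182) and fell at day 38 against 31 (-0.74 ± 0.18, adjusted p = 0.00352), with day 45 against 16 at -0.16 ± 0.18, adjusted p = 0.588. LRP6 made the same 2 moves with smaller sizes (0.47 ± 0.14, adjusted p = 0.0222 and -0.40 ± 0.14, adjusted p = 0.0449) and fell once more at day 45 against 38 (-0.49 ± 0.14, adjusted p = 0.0158). Its day 45 level was below that of day 16 (-0.43 ± 0.14, adjusted p = 0.0216). Each of the 4 calls of LRP6 was lost without some single library. The first was lost without day 16 replicate 1 (0.39) or day 23 replicate 2 (0.35), and the second without any 1 of the 4 libraries compared (-0.30 to -0.52) or either of day 23 (-0.40). The third was lost without day 38 replicate 2 (-0.38) or day 45 replicate 1 (-0.32), and the one over the whole course without day 16 replicate 2 (-0.33) or day 45 replicate 1 (-0.26). The rise of LRP5 was 0.60 without day 16 replicate 2, just short of the threshold (adjusted p = 0.0509).

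Among the 19 ligands, 3 of the 17 tested passed between days 45 and 16 (17.6%, below the 24.6% of all genes), with WNT11 and WNT7B higher and WNT5B lower. WNT11 (chr11:76186325-76210736), a ligand of the β-catenin-independent branch with a known part in heart and kidney development, measured 14.3 and 7.39 CPM on day 16, 3.10 and 1.49 on day 23, 0.921 and 3.14 on day 31, 38.7 and 24.6 on day 38 and 47.2 and 46.7 on day 45. Its 4 libraries of days 38 and 45 were above the other 6, and those of days 23 and 31 were the lowest. WNT11 fell at day 23 (log2 fold change -2.23 ± 0.45, adjusted p = 0.000695), rose at day 38 against 31 (3.98 ± 0.46, adjusted p = 3.56e-08) and ended above day 16 (2.11 ± 0.39, adjusted p = 7.87e-05). The fall was -2.86 without day 23 replicate 1, and the rise was 3.33 without day 31 replicate 1 and 5.07 without day 31 replicate 2, all past the threshold.

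WNT7B (chr22:45920366-45977162), an epithelial ligand of the lung, was close to silent at day 16. It measured 0.127 and 0.123 CPM on day 16, 5.76 and 2.86 on day 23, 4.91 and 12.7 on day 31, 17.7 and 13.9 on day 38 and 8.86 and 3.28 on day 45. The 2 libraries of day 16 held 2 counts together, below every later library. The ratio of counts was 34.7 at day 23 (95% exact interval for counting error 9.28 to 291) and 45.4 at day 45 (12.2 to 381), and both differences passed the test (adjusted p = 0.000204 and 1.38e-05). The fitted log2 values, which depend on the prior count at this level, were 4.96 and 5.43, or 4.36 without day 23 replicate 1 and 4.56 without day 45 replicate 1. Its highest libraries were those of day 38.

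WNT5A, a ligand of the β-catenin-independent branch, was the most abundant ligand per length at day 16 (9.06 ± 2.53 CPM per kb). It measured 52.0 and 77.6 CPM on day 16, 79.5 and 84.4 on day 23, 76.5 and 62.4 on day 31, 82.2 and 88.1 on day 38 and 75.8 and 52.5 on day 45. The days overlapped and no comparison passed; day 45 against 16 gave -0.02 ± 0.20, adjusted p = 0.972. By day 45 WNT11 was above it per length, at 19.8 ± 0.131 against 8.97 ± 2.30 CPM per kb. WNT5B measured 6.21 and 9.48 CPM on day 16, 1.77 and 5.60 on day 23, 1.64 and 3.61 on day 31, 2.16 and 0.349 on day 38 and 0.145 and 1.20 on day 45. Its day 45 libraries were below those of day 16 (log2 fold change -3.46 ± 1.04, adjusted p = 0.0116), a call lost without day 16 replicate 2 (-3.13) or day 45 replicate 1 (-2.69) and -5.62 without day 45 replicate 2. WNT2B ranged from 16.7 to 33.4 CPM, and 21.5% of its exon bases are shared with ST7L on the opposite strand, which leaves its values uncertain for the same reason as those of FZD4. WNT3, WNT4 and WNT16 had highest daily means of 6.40 to 8.49 CPM and passed in no comparison between 2 days. The other 11 ligands had no daily mean of 5 CPM.

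**Figure D3:**
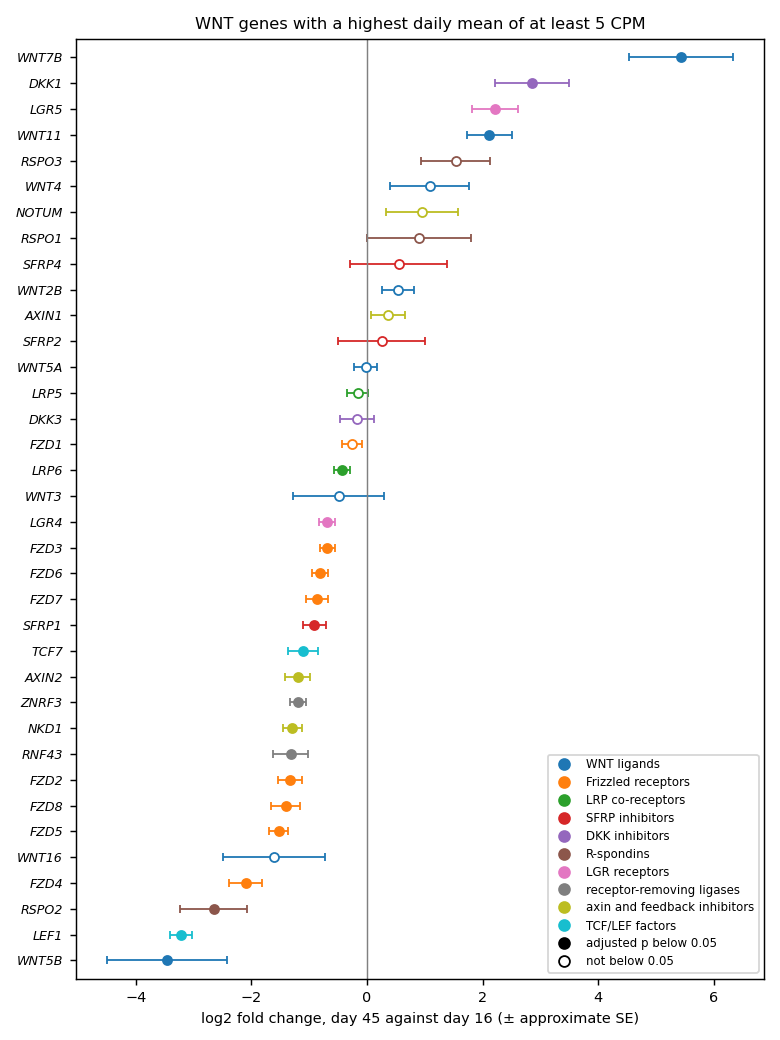
Difference between day 45 and day 16 (log2 fold change, horizontal axis, with approximate SE) of the 36 WNT genes with a highest daily mean of at least 5 CPM, sorted by size. Filled points passed the test and colours give the role; among the filled points 4 lie to the right of 0, from WNT11 at 2.11 to WNT7B at 5.43, and 18 to the left, down to WNT5B at -3.46.

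Of the secreted inhibitors, SFRP1 was lowest at day 31, DKK3 was low at days 23 and 31, and DKK1 increased over the whole course. SFRP1, which binds WNT ligands outside the cell, measured 94.6 and 85.6 CPM on day 16, 54.1 and 57.2 on day 23, 22.8 and 22.0 on day 31, 48.5 and 43.9 on day 38 and 49.7 and 46.5 on day 45. The 2 libraries of day 31 were below the other 8 and the 2 of day 16 above them. SFRP1 fell at day 23 (log2 fold change -0.70 ± 0.20, adjusted p = 0.0156) and at day 31 (-1.31 ± 0.20, adjusted p = 7.75e-05), rose at day 38 (1.04 ± 0.20, adjusted p = 0.000277) and stood below day 16 at the end (-0.91 ± 0.20, adjusted p = 0.000551). Its first fall was lost without day 16 replicate 1 (-0.61), day 23 replicate 1 (-0.66) or day 23 replicate 2 (-0.74). SFRP2, SFRP4 and SFRP5 had daily means of at most 7.12 CPM and did not pass.

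DKK3, the divergent member of its family, measured 27.9 and 33.4 CPM on day 16, 16.8 and 13.4 on day 23, 13.4 and 12.7 on day 31, 26.8 and 24.7 on day 38 and 27.1 and 27.3 on day 45. Days 23 and 31 were below the other 6 libraries. It fell at day 23 (log2 fold change -1.02 ± 0.29, adjusted p = 0.0176) and rose at day 38 (0.98 ± 0.29, adjusted p = 0.018). The fall was lost without day 16 replicate 2 (-0.88) or day 23 replicate 2 (-0.86). The rise was lost without any 1 of the 4 libraries compared (0.92 to 1.04) and without TMM factors (0.76). In the annotation 47.5% of the exon bases of DKK3 are shared with USP47 on the opposite strand, which measured 209 to 328 CPM and passed in none of these comparisons, so the DKK3 values are uncertain.

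DKK1 (chr10:52314281-52318042, plus strand), which blocks LRP5 and LRP6, measured 2.28 and 1.48 CPM on day 16, 2.44 and 5.37 on day 23, 3.68 and 7.45 on day 31, 10.3 and 4.77 on day 38 and 12.8 and 14.7 on day 45. The 2 libraries of day 45 were above the other 8. No single step passed (log2 fold changes 1.05, 0.51, 0.44 and 0.87), and day 45 was 7.28-fold above day 16 (log2 fold change 2.86 ± 0.64, adjusted p = 0.000724). Its exons share 10.2% of their bases with PRKG1-AS1 on the opposite strand, which had at most 17 counts in a library. DKK2 and DKK4 had daily means of at most 3.27 CPM and did not pass.

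The bases before the starts of the WNT genes were searched for the core letters that LEF1 and TCF7 prefer, CTTTGA or CTTTGT, read on both strands (also as TCAAAG and ACAAAG). Of 35116 windows of 250 bases before RefSeq starts (GRCh38.p14), 22.8% held at least 1 match. Among the WNT genes, 35 had an entry, with 42 windows, and 6 windows (14.3%) held a match. DKK1 was the 1 member with 3 matches or more, which 0.584% of all windows had. Its window is printed with that of FZD1, which held 1 match and fell and came back, as the called members with a match whose RefSeq start coincides with that of the gene in GENCODE 44. Both are on the plus strand, at chr10:52314031-52314280 for DKK1 and chr7:91264183-91264432 for FZD1, and capitals mark the matches, which begin 149, 95 and 76 bases before the start of DKK1 and 224 before that of FZD1. A match of letters is a description and was not measured as binding.
DKK1: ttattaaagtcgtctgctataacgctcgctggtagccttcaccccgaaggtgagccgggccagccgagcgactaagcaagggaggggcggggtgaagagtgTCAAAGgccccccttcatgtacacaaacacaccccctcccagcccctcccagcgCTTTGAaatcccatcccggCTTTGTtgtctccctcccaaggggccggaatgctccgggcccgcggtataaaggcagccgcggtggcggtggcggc
FZD1: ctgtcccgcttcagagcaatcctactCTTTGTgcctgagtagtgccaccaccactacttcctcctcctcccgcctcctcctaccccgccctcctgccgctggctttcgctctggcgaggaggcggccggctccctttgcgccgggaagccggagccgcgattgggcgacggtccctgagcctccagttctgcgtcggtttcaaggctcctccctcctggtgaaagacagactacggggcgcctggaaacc

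The R-spondins moved apart. RSPO2, a ligand of the LGR receptors, measured 13.4 and 16.4 CPM on day 16, 19.0 and 26.9 on day 23, 8.90 and 10.9 on day 31, 2.81 and 2.21 on day 38 and 4.50 and 0.437 on day 45. Its 4 libraries of days 38 and 45 were below the other 6. RSPO2 fell at day 38 against 31 (log2 fold change -1.97 ± 0.56, adjusted p = 0.0124) and stood lower at day 45 than at day 16 (-2.65 ± 0.58, adjusted p = 0.000531). The step was lost without day 31 replicate 2 (-1.83), day 38 replicate 1 (-2.16) or day 38 replicate 2 (-1.81). The 2 libraries of day 45 differed, and the value against day 16 was -5.05 without replicate 1 and -1.72 without replicate 2. RSPO3 measured 4.06 and 3.94 CPM on day 16, 8.53 and 3.43 on day 23, 0.614 and 2.21 on day 31, 10.8 and 12.1 on day 38 and 15.5 and 7.65 on day 45. An unnamed gene on the opposite strand shares 15.7% of its exon bases. Its day 31 libraries were the lowest, and it rose at day 38 against 31 (log2 fold change 3.03 ± 0.65, adjusted p = 0.000943; 2.37 without day 31 replicate 1, 4.18 without day 31 replicate 2). Day 45 against 16 did not pass (1.53 ± 0.60, adjusted p = 0.0612), but did with the replicate block (adjusted p = 0.0441), with no filter on low counts (adjusted p = 0.0447) and without any 1 of 4 single libraries (adjusted p from 0.0381 to 0.0463). RSPO1 and RSPO4 had daily means of at most 6.84 CPM and did not pass.

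The receptors of the R-spondins also parted. LGR4 measured 171 and 185 CPM on day 16, 145 and 139 on day 23, 115 and 114 on day 31, 102 and 90.4 on day 38 and 109 and 112 on day 45. All 4 libraries of days 16 and 23 were above the other 6, and day 45 was below day 16 (log2 fold change -0.69 ± 0.14, adjusted p = 0.000358). LGR5 (chr12:71439798-71586310), a marker of WNT-dependent stem cells in the gut, measured 9.13 and 3.82 CPM on day 16, 8.76 and 4.23 on day 23, 12.6 and 10.7 on day 31, 30.0 and 29.7 on day 38 and 29.5 and 30.5 on day 45. Its 4 libraries of days 38 and 45 lay between 29.5 and 30.5 CPM, above the other 6. LGR5 rose at day 38 against 31 (log2 fold change 1.36 ± 0.38, adjusted p = 0.0103) and ended 4.63-fold above day 16 (2.21 ± 0.40, adjusted p = 4.22e-05; 2.96 on the log2 scale without day 16 replicate 1). The step was lost without any 1 of the 4 libraries compared (1.24 to 1.48). LGR6 had daily means of at most 0.997 CPM.

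Set side by side, the 9 members listed above as common β-catenin targets did not move as one, a grouping made after their values were seen. At day 45 against day 16, LEF1, TCF7, AXIN2, NKD1, ZNRF3 and RNF43 were lower (beside 11.7% of all genes). DKK1 and LGR5 were higher (beside 12.9%), and NOTUM did not pass (0.95 ± 0.62, adjusted p = 0.293). DKK4, also a target but outside those 9, did not pass either (0.50 ± 1.39, adjusted p = 0.856).

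Read step by step, the calls fell at different times. At day 23 against 16, 10 of 52 WNT genes passed (19.2%, beside 10.9% of all genes), 4 higher (beside 5.60%) and 6 lower (beside 5.33%). At day 31 against 23, 3 passed (5.77%, beside 2.25%), LEF1, SFRP1 and ZNRF3, all lower (beside 0.666%) and 0 higher (beside 1.58%). Without day 31 replicate 1 only 1 of the WNT genes passed, and 6 did with no filter on low counts. At day 38 against 31, where the labels change from c-AMP to TSH and DEX, 16 passed (30.8%, beside 15.0%), 8 higher (beside 8.80%) and 8 lower (beside 6.23%). This count was 10 without day 31 replicate 2 and 10 without either library of day 38. At day 45 against 38, where the labels change from TSH and DEX to TSH and SB, 6 passed (11.5%, beside 11.2%), FZD2, FZD3, FZD8, LEF1, LRP6 and RNF43, all lower (beside 6.35%) and 0 higher (beside 4.85%). Consecutive steps share the libraries of the day between them, so a high or low value there enters both. The median log2 fold change of the tested WNT genes was -0.06, -0.24, 0.09 and -0.01 in the 4 steps, beside -0.02, 0.00, 0.00 and -0.02 for all genes.

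The step to day 38 also depended on the scaling. By library size alone the median of all genes moved to -0.20 there, and 33.3% of all calls were higher in place of 58.5%. On that scale 19 of 52 WNT genes passed (36.5%, beside 16.9% of all genes), 7 higher (beside 5.62%) and 12 lower (beside 11.3%), with LEF1 (-0.63), LGR4 (-0.47), NKD1 (-0.64) and RNF43 (-0.89) added to those lower and DKK3 lost from those higher.

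**Figure D4:**
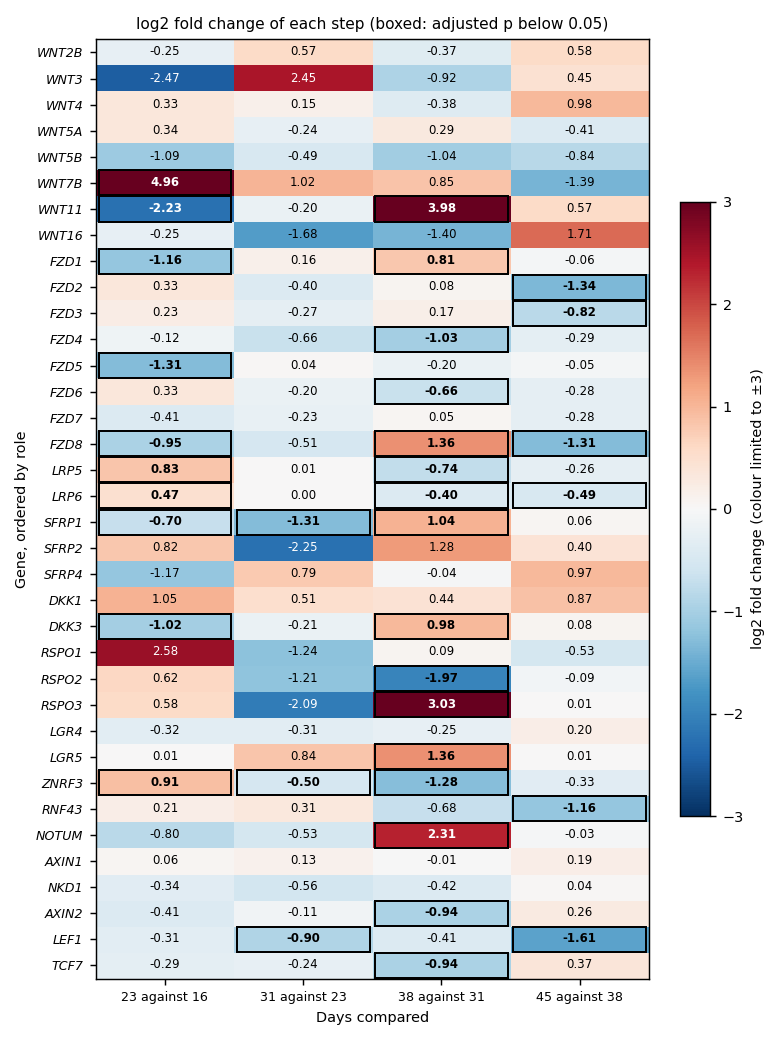
log2 fold change of each step between consecutive days for the 36 WNT genes with a highest daily mean of at least 5 CPM, ordered by role; red is higher and blue lower at the later day, with the colour limited to ±3. Boxed bold values passed the test: 10 at the first step (RSPO1 and WNT3 are deep in colour but unboxed), 3 at the second, 16 at the third and 6 at the last.

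Pathway genes outside the family names were read from 7 lists, 116 genes of which 113 were tested. At day 23 against 16, 30 passed (26.5%, beside 10.9% of all genes), 20 higher and 10 lower. At day 31 against 23, 8 passed (7.08%, beside 2.25%), 5 higher and 3 lower. At day 38 against 31, 34 passed (30.1%, beside 15.0%), 18 higher and 16 lower, and at day 45 against 38, 25 passed (22.1%, beside 11.2%), 7 higher and 18 lower. At day 45 against 16, 56 passed (49.6%, beside 24.6%), 30 higher and 26 lower. The first count was 18 without either library of day 23, and the fourth was 16 without day 38 replicate 1 and 15 without day 38 replicate 2. Reported targets of the pathway made the largest list, 32 genes, of which 19 passed over the whole course (beside 24.6% of all genes), 13 lower and 6 higher, with a median of -0.91. DACT1, a regulator of Dishevelled, measured 285 and 255 CPM on day 16, 512 and 515 on day 23, 464 and 482 on day 31, 59.9 and 54.5 on day 38 and 26.3 and 24.2 on day 45, with the last 4 libraries far below the rest (log2 fold change -3.42 ± 0.14, adjusted p = 2.17e-19). MSX2, a homeobox gene downstream of BMP and WNT, went the same way (-3.46 ± 0.20, adjusted p = 7.21e-16), as did MSX1 (-2.59 ± 0.71, adjusted p = 0.00578). SOX9, a transcription factor of epithelial progenitors, measured 9.89 and 8.99 CPM on day 16, 16.4 and 17.6 on day 23, 55.7 and 60.5 on day 31, 70.5 and 65.0 on day 38 and 80.4 and 81.7 on day 45 and rose (log2 fold change 3.10 ± 0.23, adjusted p = 6.15e-13). CCN4, also known as WISP1, rose as well (3.02 ± 0.70, adjusted p = 0.00114). Among the called pathway genes with a mean of at least 5 CPM, the largest differences at the step to day 38 were GREM1 (-3.26 ± 0.23, adjusted p = 7.29e-13), a BMP antagonist, DACT1 (-3.05 ± 0.14, adjusted p = 4.21e-18) and MSX2 (-2.41 ± 0.19, adjusted p = 7.97e-12) downward, and CCN4 (4.16 ± 0.75, adjusted p = 9.87e-05) and the vascular growth factor VEGFA (2.97 ± 0.12, adjusted p = 3.94e-19) upward.

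The other 6 lists were shorter, and their counts over the whole course stand beside the same 24.6% of all genes. Among 12 further receptors, 8 passed (66.7%), with ADGRA2 and KREMEN1 higher and GPC3, GPC4, LRP4, PTK7, RECK and ROR1 lower, a median of -0.67. Of 7 genes for ligand secretion 4 passed (57.1%), all higher (median 0.45). Over any day, however, 2 of these 7 passed (28.6%, beside 36.3% of all genes). Of 18 tested genes of the degradation complex and Dishevelled 5 passed (27.8%, 4 higher, median 0.14), a share near that of all genes. Of 19 β-catenin partners 10 passed (52.6%, 7 higher, median 0.23), of 16 planar polarity genes 7 (43.8%, 5 higher, median 0.19), and of 9 further extracellular inhibitors 3 (33.3%), with SERPINF1 (2.72 ± 0.31, adjusted p = 8.94e-09) and WIF1 higher and TRABD2B lower (median 0.39). In the first step DACT2 (1.64 ± 0.31, adjusted p = 0.000274), APCDD1 (1.34 ± 0.30, adjusted p = 0.00248) and the DKK1 receptor KREMEN1 (1.09 ± 0.25, adjusted p = 0.00255) led upward, and VEGFA (-1.16 ± 0.12, adjusted p = 6.39e-09), GPC4 (-1.12 ± 0.21, adjusted p = 0.000233) and RECK (-0.90 ± 0.29, adjusted p = 0.0385) downward. In the second, SOX9 (1.77 ± 0.22, adjusted p = 1.61e-06), MYC (1.37 ± 0.33, adjusted p = 0.0148) and CCND1 (0.76 ± 0.15, adjusted p = 0.00186) were higher and BAMBI (-0.90 ± 0.17, adjusted p = 0.000974) and MSX2 (-0.89 ± 0.17, adjusted p = 0.00189) lower. In the last step TLE3 (1.39 ± 0.18, adjusted p = 8.87e-07), MYC (1.34 ± 0.32, adjusted p = 0.00382) and CELSR3 (1.21 ± 0.34, adjusted p = 0.0135) were higher, and TRABD2B (-1.79 ± 0.43, adjusted p = 0.00374), TNFRSF19 (-1.66 ± 0.17, adjusted p = 7.59e-09) and APCDD1 (-1.58 ± 0.30, adjusted p = 0.000261) lower.

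Markers of other cells moved with the WNT genes, and their part in the results was not tested. Genes of the cardiovascular and fibroblast lists were called higher at day 38, the step at which WNT11, RSPO3, LGR5, NOTUM, SFRP1, FZD1, FZD8 and DKK3 rose. The 11 cardiovascular genes summed to 75.3 and 52.3 CPM on day 16, 47.1 and 45.6 on day 23, 51.7 and 47.4 on day 31, 307 and 288 on day 38 and 251 and 255 on day 45, with 7 of 11 called higher at day 38 against 31 (63.6%, beside 8.80% of all genes) and MYH6 the most abundant. The 13 fibroblast genes summed to 1751 and 1824 CPM on day 16, 1978 and 1973 on day 23, 1969 and 2332 on day 31, 5019.6 and 5258 on day 38 and 5041 and 4091 on day 45. COL3A1 was their most abundant gene, and 5 of the 12 tested were higher (beside 8.80%) and 2 lower (beside 6.23%) at that step, 8 (beside 12.9%) and 2 (beside 11.7%) at day 45 against 16. Airway basal genes (7, led by KRT17) summed to 25.6 and 17.7 CPM on day 16, 21.7 and 11.0 on day 23, 31.7 and 53.6 on day 31, 122 and 102 on day 38 and 147 and 121 on day 45, with KRT5 at 0 or at most 0.127 CPM until day 23. At day 38 against 31, 1 of the 7, KRT17, was called (14.3%, beside 15.0% of all genes). Goblet genes (8, led by AGR2) summed to 9.64 and 11.2 CPM on day 16, 10.8 and 16.1 on day 23, 161 and 142 on day 31, 89.0 and 65.0 on day 38 and 158 and 134 on day 45, with 3 of 8 called at that step (37.5%, beside 15.0%), 2 higher and 1 lower. These lists were highest on days 38 and 45 or, for the goblet genes, on days 31 and 45. Distal lung genes (10, led by SFTPB) peaked at day 31, at 739 and 758 CPM, beside 47.2 to 274 in the libraries of days 16 and 23 and 153 to 194 later. At day 38 against 31, 4 of the 9 tested (ETV5, LAMP3, SFTPB and SLC34A2) were lower (44.4%, beside 6.23%), the step at which AXIN2, FZD4, FZD6, LRP5, LRP6, RSPO2, TCF7 and ZNRF3 fell. Endothelial genes (6, led by EMCN) held 33.1 to 92.2 CPM with PECAM1 at 0 in 7 of 10 libraries, and forebrain genes (10, led by DLX5, with DLX1 at 0 in all) held 2.97 to 17.5 CPM with 0 called. The 10 proliferation genes summed to 778 and 928 CPM on day 16, 573 and 587 on day 23, 718 and 613 on day 31, 774 and 738 on day 38 and 403 and 552 on day 45. At day 45 against 38, 4 were lower (40.0%, beside 6.35%) and 0 higher, the step at which FZD2, FZD3, FZD8, LEF1, LRP6 and RNF43 fell. At day 23 against 16, 4 were also lower (40.0%, beside 5.33%) and 0 higher, the step at which DKK3, FZD1, FZD5, FZD8, SFRP1 and WNT11 fell, and 4 were lower at day 45 against 16 (40.0%, beside 11.7%). In the other lists, at day 23 against 16, 7 of 12 fibroblast genes were called (58.3%, beside 10.9%), 4 higher and 3 lower. At day 31 against 23, where LEF1, SFRP1 and ZNRF3 fell, 3 of 9 distal lung genes (33.3%, beside 1.58%) and 2 of 7 airway basal genes (28.6%) were higher. There 3 of 12 fibroblast genes were also called (25.0%, beside 2.25%), with COL6A3 and LUM lower (beside 0.666%) and POSTN higher. Of 6 endothelial genes EMCN was lower (16.7%), and of 8 goblet genes AGR2 was higher (12.5%). At day 38 against 31, 2 of 6 endothelial genes were lower (33.3%, beside 6.23%). At day 45 against 38, 6 of 11 thyroid genes were called (54.5%, beside 11.2%). Of these, DUOX2 and TG were higher and FOXE1, HHEX, IYD and NKX2-1 lower. Also called there were 4 of 12 fibroblast genes (33.3%, 3 higher) and 3 of 8 goblet genes (37.5%, 2 higher). Higher there too were 2 of 9 distal lung genes (22.2%) and 1 of 7 airway basal genes (14.3%), beside 4.85% of all genes. At day 45 against 16, 6 of 11 cardiovascular (54.5%), 4 of 7 airway basal (57.1%) and 4 of 8 goblet genes were higher, beside 12.9%, and 0 of these lists' genes lower. The small nuclear RNA gene RN7SK held between 2.92 and 8.17% of each count total, with the least in day 31 replicate 1 and the most in day 38 replicate 1.

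**Figure D5:**
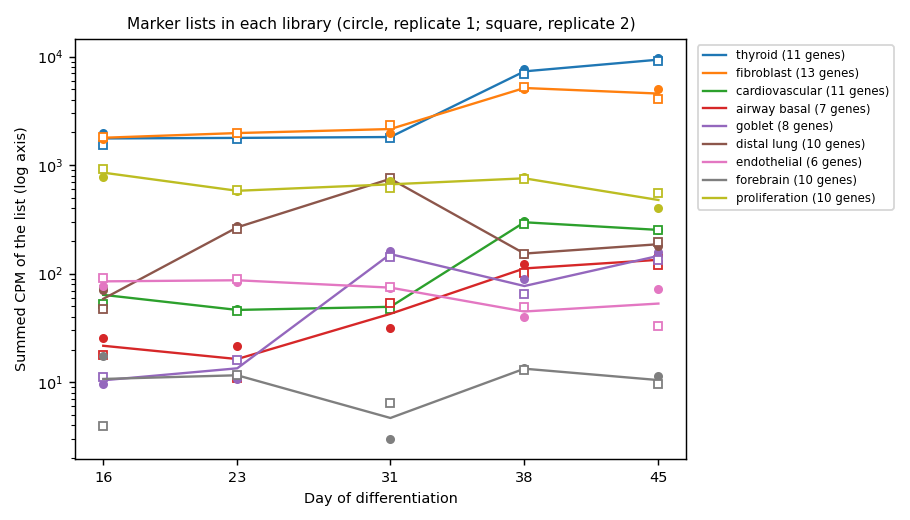
Summed level (CPM, log axis) of 9 lists of marker genes in each library by day of differentiation; circles are replicate 1, squares replicate 2 and lines join daily means. The thyroid and cardiovascular lists step up between days 31 and 38 (cardiovascular from 51.7 and 47.4 to 307 and 288 CPM), and the distal lung list peaks at day 31.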

How the data were processed

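NKX2-1GFP+ cells of 10 organoid samples, 2 replicates at each of 5 days, were profiled by low-input RNA-seq. Trimmomatic, HISAT2 (GRCh38) and HTSeq were used by the authors, who deposited raw counts per gene symbol; strand setting and tool versions are not given in the sources used here. No molecular identifiers are named, so counting intervals and the floor of 3 counts cover counting error only.

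Samples were grouped by day from their labels. Symbols with 5 counts or more in 2 libraries or more (21014 of 28265) were fitted with 1 mean per day in edgeR 4.0.16 (TMM, glmQLFit, glmQLFTest; R 4.3.3, limma 3.58.1), leaving 5 residual degrees of freedom. P-values were adjusted by Benjamini-Hochberg over all genes, with 0.05 as the threshold. The SE of a log2 fold change is approximate, its size over the root of F. On simulated counts 39% of genes changed by 1 and 70% of those changed by 2 on the log2 scale were recovered (day 38 against 31). The changed genes were drawn from those with a mean above 1 CPM, so recovery of rarer genes was not measured. Levels per length used the union of exons in GENCODE 44, which matched 54 of 54 WNT genes. Replicates differed beyond sampling noise on every day (chi-square per degree of freedom 8.38 to 13.7), and each was counted as 1 sample.

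The members, lists and tests were chosen with earlier results of these data known. Values are given for each WNT gene that passed in a comparison with a mean of at least 1 CPM or whose highest daily mean was at least 50 CPM, and of other pathway genes for the 3 highest and 3 lowest called per comparison with a mean of at least 5 CPM; genes outside this rule were named after their values were seen. Some results for single genes are not reported here. The alternatives were DESeq2 1.42.0, library size alone, upper-quartile factors, no filter on low counts, filterByExpr, only the 4 libraries compared, a replicate block, an added log2 threshold of 1, the longest transcript as length, and leaving out each library.

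Promoter windows and starts came from RefSeq (GRCh38.p14); AXIN2, DKK2, DKK3, DKK4, FZD10, FZD2, FZD3, FZD6, FZD7, LGR5, LRP6, NKD1, NOTUM, RSPO2, SFRP1, WNT10B, WNT11, WNT7B and ZNRF3 had no entry in the table used.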

Additional observations from a re-analysis of the deposited data

How the results depend on the processing

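The 57 calls of single WNT genes between days kept their direction under every alternative run, and 27 of them passed under all. DESeq2, upper-quartile factors, no filter on low counts, filterByExpr and the replicate block lost 0 of the 57. Library size alone lost 2 (DKK3 at day 38 and ZNRF3 at day 31), fitting only the 4 libraries compared lost 1 (LRP6 at day 45 against 16), and a log2 fold change of at least 1 lost 22, as its construction requires. Leaving out single libraries also lost calls, as given with the genes above.

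With that fold threshold the counts of WNT genes were 5 at day 23 against 16, 1 at day 31 against 23 and 9 at day 38 against 31, and those of other pathway genes in the 4 steps were 10, 4, 18 and 10, with 34 at day 45 against 16. At day 31 against 23 the count of WNT genes was 6 with no filter on low counts and 5 with the replicate block. The replicate numbers do not pair the samples: deviations of same-numbered libraries from their day's mean correlated at -0.04 to 0.04.

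Leaving out 1 library at a time gave 7 to 11 WNT genes at day 23 against 16, 1 to 4 at day 31 against 23, 10 to 16 at day 38 against 31, 4 to 7 at day 45 against 38, 20 to 23 at day 45 against 16 and 27 to 30 over any day. For other pathway genes it gave 18 to 30, 6 to 11, 27 to 37, 15 to 28, 46 to 56 and 65 to 70. The lowest of these, 18 and 15, came without either library of day 23 and without day 38 replicate 2. The summed Frizzled level at day 16 was 179 to 181 CPM per kb, and that at day 45 was 94.5 to 99.3. It was 186 at day 16 by the longest transcript, and 183 and 92.3 at days 16 and 45 by library size alone. Some rare members had wide errors: LGR6 and FZD10, with at most 12 and 21 counts in a library, had SEs of 2.53 to 3.38 (log2) where either day had counts. FZD10 had 21 and 0 counts in the libraries of day 31, and the part of depth in these errors was not tested.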

Other observations

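Some WNT genes passed under an alternative in comparisons between 2 days that they did not pass in the edgeR fit of the report, and are given here as values. WNT3, a canonical ligand, measured 6.47 and 7.88 CPM on day 16, 2.55 and 0 on day 23, 10.0 and 4.07 on day 31, 4.54 and 2.91 on day 38 and 3.48 and 6.66 on day 45, with 0 counts in day 23 replicate 2. The drop at day 23 (log2 fold change -2.47 ± 0.86, adjusted p = 0.0589) passed with no filter on low counts (adjusted p = 0.0133), as did the return at day 31 (2.45 ± 0.86, adjusted p = 0.165, then 0.0407), and both passed with the replicate block (adjusted p = 0.00599 and 0.0279). Without day 23 replicate 1 only the library at 0 stood for that day, and both passed there too (fitted values -8.94 and 8.92, which rest on 0 counts and bound nothing).

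RSPO1 measured 1.78 and 0.493 CPM on day 16, 8.42 and 5.26 on day 23, 2.76 and 3.03 on day 31, 2.92 and 3.26 on day 38 and 2.76 and 1.53 on day 45. Both day 23 libraries were above the other 8, and the difference from day 16 (log2 fold change 2.58 ± 0.90, adjusted p = 0.0588) passed in DESeq2 (adjusted p = 0.0253). It was 3.77 without day 16 replicate 1 (adjusted p = 0.0459). DKK4, a target and inhibitor of the canonical branch, measured 2.79 and 1.85 CPM on day 16, 0.665 and 2.52 on day 23, 0 and 1.16 on day 31, 0 and 0.233 on day 38 and 3.05 and 3.49 on day 45, and its last step (log2 fold change 4.68 ± 1.74, adjusted p = 0.0813) passed in DESeq2 (adjusted p = 0.0326). The ratio of counts in that step was 29.5 (95% exact interval for counting error 7.77 to 250). FZD9 measured 0.888 and 1.23 CPM on day 16, 0 and 0 on day 23, 0 and 0 on day 31, 1.51 and 0.349 on day 38 and 3.77 and 3.06 on day 45 and had 0 counts in all 4 libraries of days 23 and 31, and in DESeq2 the steps into and out of those days passed (adjusted p = 0.0483 and 0.0476). FZD9 also passed over any day in edgeR (adjusted p = 0.0132). WNT16 passed over any day (adjusted p = 0.0251) and in no comparison between 2 days.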
